A study of Brassica napus and Orychophragmus violaceus with 4 samples.

Results

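The WRKY transcription factors of 4 petal transcriptomes were examined gene by gene. A gene was included when its symbol was WRKY followed by a number, and 145 of 37441 genes met this rule. They are *Brassica rapa* gene models named after 63 *WRKY* genes of *Arabidopsis*. Another 2 genes with such a symbol were left out because their *Arabidopsis* counterpart is *TTG2* (*WRKY44*), which belongs to the trichome and seed coat pathway.

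Petals were taken from half-open flowers of greenhouse plants, and 1 library was made per material. M4 is a disomic addition line of *B. napus*, with every *B. napus* chromosome plus a pair of chromosomes from *Orychophragmus violaceus*, and its yellow petals carry red pigment. H3 is the *B. napus* cultivar Huashuang 3 with yellow petals. OvP is wild-type *O. violaceus* with purple petals, and OvW is its natural mutant with white petals. M4 was set against H3, and OvP against OvW, to ask how the regulators differ between petals with and without red or purple colour. M4 and H3 also differ by the whole added chromosome pair, so the pigment and the other genes of that pair cannot be told apart. With 1 library per material there is no replicate check, and each test below compares 2 libraries, not 2 conditions.

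WRKY proteins carry a domain that binds the W-box, a short DNA element rich in the promoters of defence genes. In *Arabidopsis* they are sorted into group I, with a pair of WRKY domains, groups IIa to IIe, with a single domain, and group III, with a different zinc finger. They are known for pathogen responses downstream of MAP kinases, for the salicylate pathway, for leaf senescence, for heat and drought responses and for phosphate supply. Many are induced quickly and held at low levels in undisturbed tissue.

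Gene reads came to 15507389 in M4 and 16447021 in H3, and 1850787 in OvP and 2040729 in OvW. The study reported similar numbers of clean reads for all libraries. It mapped a much smaller share of them in *O. violaceus* than in *B. napus*. All reads had been placed on *B. rapa* genes, so reads of *O. violaceus* were counted only where the sequences were close enough. The copy to which a read was given is uncertain among near-identical copies. The study gives *B. napus* the genomes AACC, while the numbered chromosomes of these gene models are all A chromosomes. Reads of C-genome copies in M4 and H3 could be counted only on these models. A copy named below may thus stand for several genes of *B. napus*. Transcripts from the added chromosomes of M4 could be counted only on these same *B. rapa* genes. The petal label was checked with 12 copies of *AP3*, *PI* and *SEP* genes, none of which was at 0 reads in any library. Their summed level was 6144 RPKM, a read density scaled for transcript length and library depth, in M4 and 7053 in H3, and 7904 in OvP and 11908 in OvW. In a bulk petal sample, fewer cells of a type and less RNA per cell cannot be told apart.

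The *WRKY* family was a weakly read part of the petal transcriptome. It held 7692 reads in M4 and 9481 in H3, and 1473 in OvP and 1484 in OvW, which is 0.0496%, 0.0576%, 0.0796% and 0.0727% of the reads on genes in that order of libraries. The median *WRKY* level was 0.24 RPKM in M4 and 0.14 in H3, and 0.93 in OvP and 0.98 in OvW, against 2.42, 1.48, 2.46 and 2.31 RPKM over all genes in the same 4 libraries. At least 1 RPKM was reached by 46 of 145 members in M4 and 39 in H3, and 71 in OvP and 71 in OvW. These are 31.7%, 26.9%, 49% and 49% of the members, whereas 58.9%, 54%, 65.7% and 64.7% of all genes reached that level. The threshold takes fewer reads in the *O. violaceus* libraries, which hold fewer gene reads. *WRKY9*, for example, passed it with 2 reads in OvP (1.07 RPKM) but not with 3 reads in M4 (0.24 RPKM). Counted by reads, the order of the species was reversed. Members with 10 or more reads numbered 53 for M4 and 45 for H3, but only 27 for OvP and 31 for OvW. Most members were thus near the limit of detection, and 76, 78, 97 and 91 of them had no more than 3 reads in M4, H3, OvP and OvW.

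A few genes supplied a large part of the reads. The 5 most read members held 59.1% of the *WRKY* reads in M4 and 61.4% in H3, and 48.7% in OvP and 39.1% in OvW. *WRKY2*, which in *Arabidopsis* acts in pollen development and in the polarity of the zygote, was the first of them in both *B. napus* petals. Its copy Bra002828 on chromosome A10 had 1842 reads in M4 and 2334 in H3, and 135 in OvP and 101 in OvW, or 56.5, 68.2, 35.4 and 24.1 RPKM. This gene was high in every library. *WRKY6*, a regulator of senescence and phosphate transport in *Arabidopsis*, was led by Bra027057 with 39.9 RPKM in M4 and 44.5 in H3, and 6.06 in OvP and 19.5 in OvW. *WRKY34*, known as a pollen gene in *Arabidopsis*, lay at the other end, with 0 to 2 reads for either of its copies in any library.

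Other genes led in *O. violaceus*. In OvW the highest were *WRKY25* copy Bra018325 at 72.1 RPKM and *WRKY20* copy Bra035325 at 69.1. Bra035325 spans only 216 bases and had 31 reads in OvW. The *WRKY20* copy Bra010431 had 106 reads there, at 31.2 RPKM. In OvP the 3 genes described next were the highest. *WRKY31* (Bra013584, group IIb) reached 89.7 RPKM in OvP and 28 in OvW, beside 4.83 in M4 and 7.45 in H3. *WRKY11*, a calmodulin-binding group IId factor that restrains basal defence in *Arabidopsis*, was led by Bra011282 with 76.9 RPKM in OvP, 55.5 in OvW, 6.83 in M4 and 6.98 in H3. *WRKY21* (Bra018303), of the same calmodulin-binding group, had 47 RPKM in OvP, 40.7 in OvW, 5.34 in M4 and 3.59 in H3. All 3 of these genes were above both *B. napus* libraries in both *O. violaceus* libraries. Across the family, 60 members (41.4%) were higher in both *O. violaceus* libraries than in both *B. napus* libraries and 23 (15.9%) were lower. Over all genes these shares were 32.3% and 28%. No minimum of reads was set. *WRKY9* (Bra004285) therefore counted as higher with 2 reads in OvP and 2 in OvW, beside 3 in M4 and 2 in H3. A much smaller share of reads had been mapped to *B. rapa* in *O. violaceus* than in *B. napus*. How much of such a gap between species comes from this placing, or from the fewer gene reads of *O. violaceus*, was not tested.

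**Figure D1:**
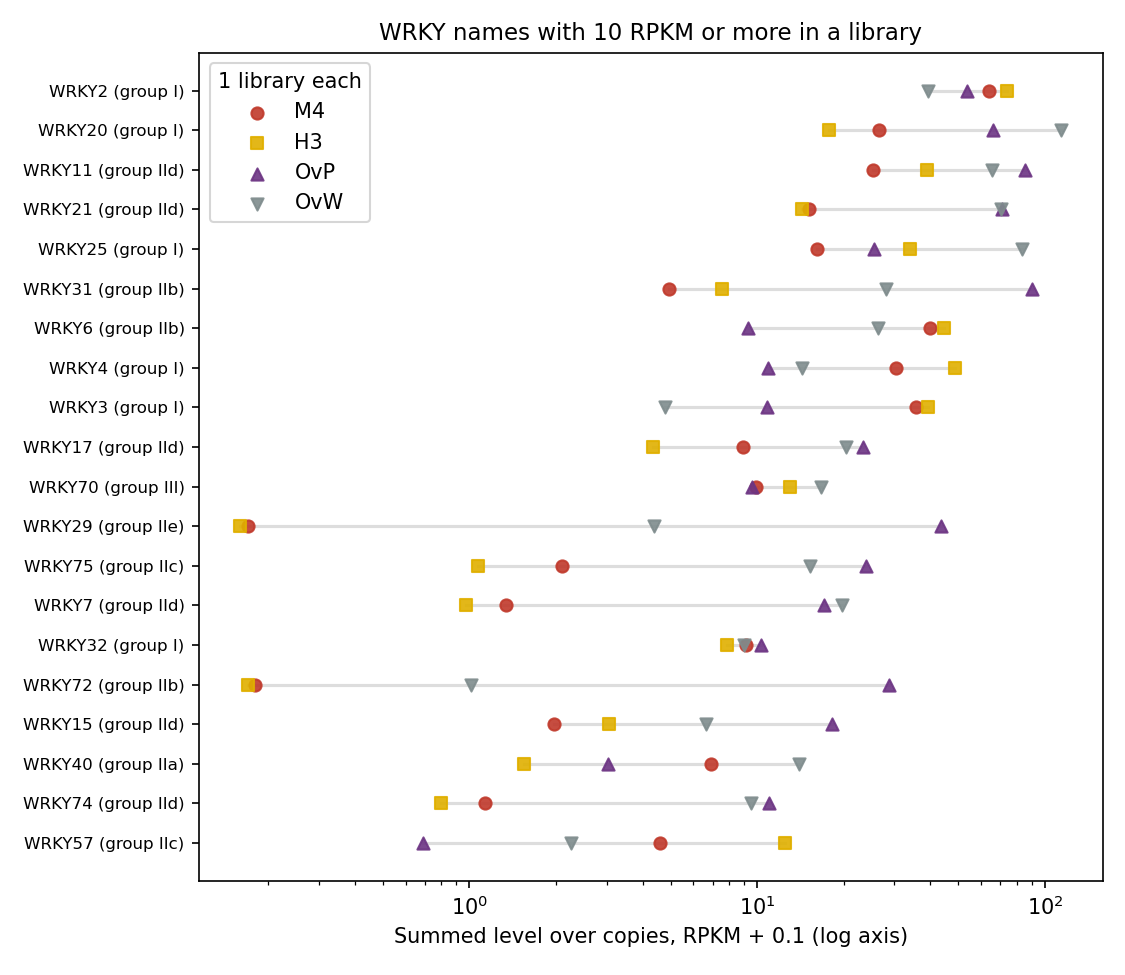
Summed level over the copies of each *WRKY* name, in RPKM plus 0.1 on a log axis, for the 20 names that reached 10 RPKM in a library, with 1 point per library. *WRKY2* stays between 39.1 and 73.8 RPKM, whereas *WRKY29* lies at 43.3 RPKM in OvP, 4.27 in OvW and under 0.1 in M4 and H3.

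By group, group I had the highest summed level in M4, H3 and OvW, and group IId had it in OvP. The 29 group I genes summed to 184 RPKM in M4 and 226 in H3, and 183 in OvP and 278 in OvW. The 16 group IId genes summed to 55.2 RPKM in M4 and 62.3 in H3, and 226 in OvP and 196 in OvW. The 24 group III genes, which in *Arabidopsis* include the salicylate-linked *WRKY54*, *WRKY62* and *WRKY70*, summed to only 14.3 RPKM in M4 and 20.5 in H3, and 26.7 in OvP and 28.3 in OvW. The group III member with the highest mean over the 4 libraries was *WRKY70* copy Bra007243, with 4.20 RPKM in M4 and 3.69 in H3, and 8.28 in OvP and 9.27 in OvW. In H3 another *WRKY70* copy, Bra014692, was above it at 6.30 RPKM.

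Between M4 and H3, more *WRKY* genes fell than rose. A gene was called when an exact binomial test of its reads gave an unadjusted p of 0.01 or less and the fold was at least 2 or at most 0.5, after scaling by the trimmed mean of M-values (TMM). Of 121 members with a read in the pair, 6 rose in M4 (4.96%, against 16.2% of all genes tested) and 20 fell (16.5%, against 12.7% of all genes). Among the 65 members with 10 or more reads over the pair, 9.23% rose and 29.2% fell, against 21.7% and 16.7% of all genes with that many reads. The median log2 fold of these 65 genes was -0.40, against 0.05 over all 25546 genes with as many reads, and 39 of the 65 lay below 0. Scaling by total reads moved the median of all genes by 0.38 on the log2 scale, and 9 members were then called higher and 11 lower. How many of all genes were called under that scaling was not counted. Relative to all genes, the *WRKY* median was -0.45. The other 24 members had no read in M4 or H3.

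The gene with the highest fold of those that rose was *WRKY36*, which in *Arabidopsis* represses the photomorphogenesis gene *HY5* and binds the UV-B receptor. Its copy Bra007884 on chromosome A02 had 75 reads in M4 against 1 in H3, a fold of 61 (95% interval 10.6 to 2439, exact binomial p = 1.65e-18). It had 1 read in OvP and 1 in OvW. M4 alone of the 4 libraries held more than 1 read of this gene.

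*WRKY22*, which acts with *WRKY29* downstream of the flagellin-triggered MAP kinases in *Arabidopsis*, had 37 reads in M4 and 2 in H3 on Bra037368. This was a fold of 15 (3.88 to 129, exact binomial p = 4.93e-08), and the gene had 8 reads in OvP and 6 in OvW. *WRKY40*, a pathogen-induced repressor of group IIa that also acts in abscisic acid signalling in *Arabidopsis*, had 71 reads in M4 and 9 in H3 on Bra035148 (chromosome A07). Its fold was 6.41 (3.19 to 14.6, exact binomial p = 1.16e-10). The other two copies of *WRKY40* had 8 and 18 reads in M4, against 2 and 9 in H3, and were not called.

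The 3 other rises had lower folds or bounds. *WRKY39*, linked to heat tolerance in *Arabidopsis*, had 27 reads in M4 and 7 in H3 on Bra001117 (fold 3.13, 1.33 to 8.53). *WRKY20*, a group I factor, had 98 reads in M4 and 37 in H3 on Bra019095 (fold 2.15, 1.46 to 3.23). *WRKY14*, of group IIe, had 11 reads in M4 and 0 in H3 on Bra041029, at least 2.98-fold higher when H3 is set to a floor of 3 reads. Of the 6 rises, those of *WRKY36*, *WRKY22* and *WRKY40* also passed when a biological coefficient of variation of 0.4 was assumed.

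The falls with the lowest read counts in M4 included *WRKY54*, *WRKY28* and *WRKY62*. *WRKY54*, a partner of *WRKY70* that restrains leaf senescence in *Arabidopsis*, had 0 reads in M4 and 21 in H3 on Bra016974, at least 8.61-fold lower against a floor of 3 reads (exact binomial p = 4.82e-08). *WRKY28*, an activator of the salicylate synthesis gene *ICS1* there, had 0 reads in M4 and 13 in H3 on Bra012614, at least 5.33-fold lower (exact binomial p = 2.96e-05). *WRKY62*, a salicylate-induced factor that restrains basal defence in the same species, had 2 reads in M4 and 51 in H3 on Bra028918. Its fold was 0.0319 (0.00376 to 0.121, exact binomial p = 7.37e-16). M4 was at or close to 0 for each of these 3 genes.

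*WRKY70* itself, which sets salicylate against jasmonate responses in *Arabidopsis*, differed between its copies. Bra014692 had 27 reads in M4 against 91 in H3 (fold 0.241, 0.151 to 0.374, exact binomial p = 1.21e-12). Bra003239 had 49 reads in M4 and 42 in H3, and Bra007243 had 56 in M4 and 52 in H3. Neither of these was called, with folds of 0.948 (0.615 to 1.47) and 0.875 (0.589 to 1.3), and the direction of both turned when total reads were used for scaling. One copy of 3 therefore fell. The senescence regulator *WRKY53* was close to unread in H3, with 11 reads in M4 and 1 in H3 on Bra013732 and 0 in M4 and 1 in H3 on Bra019265, and neither copy was called. The fold of Bra013732 was 8.94 (1.3 to 385), and it was called higher under total-read scaling, as were single copies of *WRKY17* and *WRKY69*, named after their values were seen.

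*WRKY19*, whose *Arabidopsis* protein joins the WRKY domain to domains of resistance proteins, had 6 reads in M4 and 121 in H3 on Bra000758. Its fold was 0.0403 (0.0145 to 0.0903, exact binomial p = 1.06e-34). The copy Bra029432 had 22 reads in M4 against 9 in H3 (fold 1.99, 0.879 to 4.90) and was not called. The group I genes *WRKY25* and *WRKY33*, which act together in heat tolerance in *Arabidopsis*, fell in 2 of 3 copies and 1 of 3 copies. *WRKY25* had 21 reads in M4 and 73 in H3 on Bra022786 (fold 0.234, 0.137 to 0.384) and 195 in M4 and 470 in H3 on Bra021623 (fold 0.337, 0.284 to 0.399), while Bra018325, with 59 in M4 and 67 in H3 (fold 0.716, 0.496 to 1.03), was not called. *WRKY33*, also needed for camalexin synthesis and for resistance to *Botrytis*, had 35 reads in M4 and 95 in H3 on Bra000064 (fold 0.299, 0.197 to 0.445). Its other two copies had 3 and 1 reads in M4, against 5 and 3 in H3, and were not called.

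*WRKY57*, a group IIc factor that promotes drought tolerance and delays jasmonate-induced senescence in *Arabidopsis*, fell in every copy. Bra004370 had 17 reads in M4 against 58 in H3 (fold 0.238, 0.130 to 0.415), and Bra004002 had 26 in M4 and 79 in H3 (fold 0.267, 0.165 to 0.421). The third copy, Bra038313, was singled out after its values were seen and had 19 reads in M4 against 47 in H3 (fold 0.329, 0.182 to 0.571). With its copies summed, *WRKY57* had 62 reads in M4 against 184 in H3, a fold of 0.279 (0.206 to 0.374).

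The 9 other genes that fell lost their call when total reads were used for scaling, and all but *WRKY15* are named after their values were seen. They were the copies Bra019697 and Bra026869 of *WRKY4*, Bra010231 and Bra023998 of *WRKY11*, and single copies of *WRKY13*, *WRKY15*, *WRKY21*, *WRKY23* and *WRKY45*. *WRKY4*, which with *WRKY3* acts against necrotrophic fungi in *Arabidopsis*, was the most read of them, with 468 reads in M4 and 805 in H3 on Bra019697 (fold 0.472, 0.421 to 0.530). Under that scaling its fold was 0.617. The least read of them was *WRKY23*, with 0 reads in M4 and 6 in H3. Of all 20 falls, 4 also passed at an assumed coefficient of variation of 0.4, those of *WRKY19*, *WRKY28*, *WRKY54* and *WRKY62*.

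**Figure D2:**
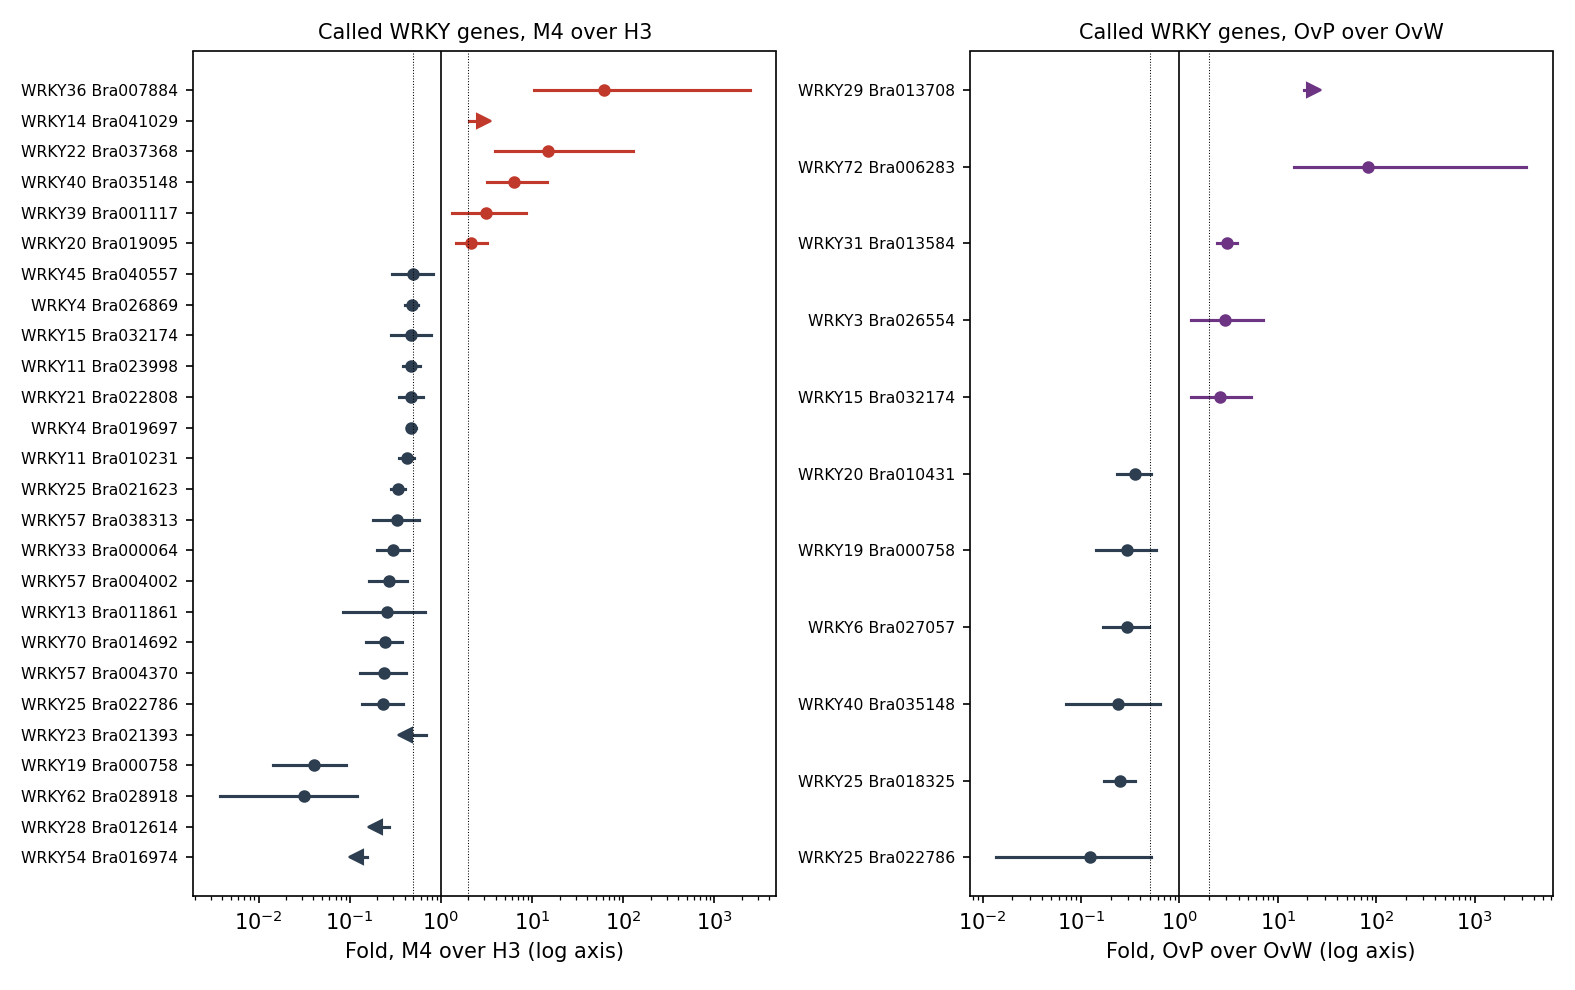
Fold of every called *WRKY* gene with its 95% interval on log axes, M4 over H3 on the left (26 genes) and OvP over OvW on the right (11 genes). Red and purple mark higher genes and dark points lower ones, arrowheads mark folds against a floor of 3 reads, dotted lines mark folds of 2 and 0.5, and the intervals cover counting error only. In the left panel 20 of 26 genes lie below 1, and in the right panel 6 of 11.

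Calls by group were few and are given beside the 16.2% of all genes that were higher and the 12.7% that were lower. In M4 over H3, group I had 1 gene higher and 5 lower of 26 tested, group IIc 0 higher and 7 lower of 29, group IId 1 higher and 4 lower of 15, and group III 0 higher and 3 lower of 19. Groups IIa, IIb and IIe had 1, 1 and 2 genes higher and none lower, of 7, 10 and 12 tested. No difference between groups was tested. With the reads of all copies of a name summed, 4 of 61 names rose and 10 fell, against 17% and 13.3% of all *Arabidopsis* names. *WRKY40* also rose on summed reads, with 97 reads in M4 against 20 in H3 (fold 4.01, 2.46 to 6.86). No name had copies called in opposite directions, and *WRKY4*, *WRKY11*, *WRKY25* and *WRKY57* had at least 2 copies that fell.

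Genes that act around WRKY factors in *Arabidopsis* were read with the same test in M4 and H3, where 16.2% of all genes rose and 12.7% fell. Of 24 tested genes for salicylate signalling and defence outputs, 3 rose and 11 fell, and the median log2 fold over the 16 with 10 or more reads was -1.62, against 0.05 over all genes. *ICS1*, the main salicylate synthesis enzyme, had 2 reads in M4 and 68 in H3 on Bra005956 (fold 0.0239, 0.00284 to 0.0897). Its more read copies differed less, with 70 reads in M4 and 167 in H3 on Bra003789 (fold 0.341, 0.254 to 0.453) and 161 in M4 and 194 in H3 on Bra008165 (fold 0.674, 0.544 to 0.835), which was not called. *PR2*, a glucanase used as a salicylate marker, had 4 reads in M4 and 43 in H3 on Bra007315 (fold 0.0756, 0.0197 to 0.208). *CBP60G*, an activator of *ICS1*, moved in both directions among its copies, with 0 reads in M4 and 59 in H3 on Bra020564, at least 24.2-fold lower, and 353 in M4 and 126 in H3 on Bra040919 (fold 2.28, 1.85 to 2.81).

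The other rises of that list were *SARD1*, the partner of *CBP60G*, with 54 reads in M4 and 1 in H3 on Bra015964 (fold 43.9, 7.55 to 1765), and the defence regulator *PAD4*, with 48 in M4 and 7 in H3 on Bra006922 (fold 5.57, 2.51 to 14.6). Copies of *PAD4* were split too, since Bra012805 had 20 reads in M4 against 53 in H3 (fold 0.307, 0.174 to 0.522). Of 21 kinase genes upstream of WRKY factors, 2 rose and 5 fell, and the all-gene shares were 16.2% and 12.7%. The risers were *MPK3*, with 757 reads in M4 and 259 in H3 (Bra038281, fold 2.38, 2.06 to 2.75), and *MKK2*, with 441 in M4 and 135 in H3 (Bra011137, fold 2.65, 2.18 to 3.24). *CPK11*, a calcium-dependent kinase, had 605 reads in M4 and 1482 in H3 (Bra034407, fold 0.332, 0.301 to 0.365).

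VQ proteins, which bind WRKY factors, had 1 rise and 2 falls among 11 tested genes, against 16.2% and 12.7% of all genes. *SIB1*, a partner of *WRKY33* in *Arabidopsis*, had 3 reads in M4 and 35 in H3 on Bra007265 (fold 0.0697, 0.0137 to 0.221), and its relative *SIB2* had 13 in M4 and 0 in H3 on Bra000216. Of 12 senescence and phosphate genes, 1 fell and none rose, also under those shares, by the exact binomial test with its fold threshold. That gene was the senescence factor *NAP*, with 17 reads in M4 and 65 in H3 on Bra004385 (fold 0.213, 0.117 to 0.367). Among markers of other flower parts, the 7 carpel and ovule genes summed to 8.20 RPKM in M4 and 20.1 in H3, with 1 gene lower (*SHP2*) and 1 and 3 genes at 0 reads. The 11 anther and pollen genes summed to 8.57 RPKM in M4 and 10.3 in H3, with 1 gene higher and 2 lower. The 5 green tissue genes summed to 52 RPKM in M4 and 65.3 in H3, and none of 4 tested was called by the exact binomial test with its fold threshold. Of the 12 petal genes, 1 was higher and 3 were lower. Their part in the *WRKY* differences was not tested.

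Between OvP and OvW, the shares of *WRKY* genes that differed were close to those of all genes. Of 131 members with a read in the pair, 5 rose in OvP (3.82%, against 5.6% of all genes tested) and 6 fell (4.58%, against 5.76%). Among the 43 members with 10 or more reads, 11.6% rose and 14% fell, against 9.44% and 9.93% of all genes with that depth. Their median log2 fold was -0.29, against 0.004 over all 19141 such genes. With copies summed, 4 of 59 names rose and 4 fell, against 6.13% and 6.56% of all *Arabidopsis* names. The other 14 members had no read in either library, and the lower number of gene reads in this pair limits what could be detected.

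The rises in OvP were led by *WRKY72*, which acts in basal defence in *Arabidopsis* and tomato. Its copy Bra006283 on chromosome A03 had 80 reads in OvP and 1 in OvW, a fold of 83.1 (14.5 to 3324, exact binomial p = 9.27e-24), beside 2 reads in M4 and 0 in H3. The gene was therefore close to unread outside OvP. *WRKY29* showed the same arrangement, with 0 reads of Bra013708 in the other 3 libraries and 67 in OvP. With its 3 copies summed, *WRKY29* had 73 reads in OvP and 8 in OvW (fold 9.52, 4.59 to 22.9, exact binomial p = 4.27e-15), and its copy Bra019297 had 4 reads in OvP and 7 in OvW.

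*WRKY31*, the highest *WRKY* gene of OvP, had 274 reads in OvP and 94 in OvW (fold 3.03, 2.39 to 3.87, exact binomial p = 3.45e-23). *WRKY3* had 25 reads in OvP and 9 in OvW on Bra026554 (fold 2.89, 1.3 to 7.03). *WRKY15*, which in *Arabidopsis* acts in oxidative and salt stress, had 32 reads in OvP and 13 in OvW on Bra032174 (fold 2.56, 1.31 to 5.31). Of these 5 rises, *WRKY72* and *WRKY29* also passed at an assumed coefficient of variation of 0.4.

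The 6 falls in OvP included 2 of the 3 copies of *WRKY25*. Bra018325 had 40 reads in OvP and 168 in OvW (fold 0.247, 0.171 to 0.351, exact binomial p = 6.42e-19), and Bra022786 had 2 in OvP and 17 in OvW (fold 0.122, 0.0137 to 0.515). The third copy had 11 reads in OvP and 8 in OvW and was not called. *WRKY6* had 19 reads in OvP and 67 in OvW on Bra027057 (fold 0.295, 0.167 to 0.496), and *WRKY20* had 36 in OvP and 106 in OvW on Bra010431 (fold 0.353, 0.235 to 0.519).

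*WRKY19* had 12 reads in OvP and 42 in OvW on Bra000758 (fold 0.297, 0.142 to 0.574), and *WRKY40* had 5 in OvP and 22 in OvW on Bra035148 (fold 0.236, 0.0699 to 0.639). None of the 6 falls passed at an assumed coefficient of variation of 0.4 (edgeR exact test), where 2 members were lower at an unadjusted p under 0.05. Of the salicylate and defence list, none of 24 tested genes was called in OvP over OvW, against 5.6% higher and 5.76% lower of all genes. Of these 24 genes, 4 had 10 or more reads. *ICS1* copy Bra003789 was the most read of these, with 42 reads in OvP and 35 in OvW. Of the *WRKY33*, *WRKY53*, *WRKY70* and *WRKY75* copies, none was called in this pair by the exact binomial test. *WRKY70* copy Bra003239 came nearest, with 1 read in OvP and 8 in OvW (exact binomial p = 0.0394), and *WRKY75*, a phosphate starvation and senescence factor in *Arabidopsis*, had 20 reads in OvP and 14 in OvW on Bra008858 (fold 1.48, 0.713 to 3.18).

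In the kinase list, 1 of 22 genes rose and 2 fell in OvP, where 5.6% of all genes rose and 5.76% fell. *MKK5*, which acts above *MPK3*, had 43 reads in OvP and 8 in OvW on Bra001817 (fold 5.59, 2.60 to 13.8). *MEKK1* had 3 reads in OvP and 17 in OvW on Bra039693 (fold 0.183, 0.0344 to 0.634) and 19 in OvP and 41 in OvW on Bra037860 (fold 0.482, 0.264 to 0.849). None of 15 VQ genes and none of 13 senescence and phosphate genes was called, with 1 and 7 of them at 10 or more reads.

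Of 4 tested green tissue genes, 2 were lower in OvP (*LHCB2.1* and *LHCB1.1*). Of all genes tested in this pair, 5.6% were higher and 5.76% lower. All 5 genes of the list summed to 875 RPKM in OvP and 2496 in OvW, of which *LHCB2.1* alone held 706 in OvP and 2177 in OvW, and 1 and 2 genes were at 0 reads. A copy of the petal identity gene *PI*, Bra006549, was among 3 of 12 petal genes that were lower, beside 1 that was higher. It had 42 reads in OvP and 461 in OvW. The more read *PI* copies were not called. Bra020093 had 1691 reads in OvP and 3208 in OvW (fold 0.548). Bra002285 had 1420 in OvP and 2256 in OvW (fold 0.654). The anther and pollen genes summed to 49.5 RPKM in OvP and 49.3 in OvW, and the carpel and ovule genes to 12.9 and 12.5. The part of green tissue or petal stage in the *WRKY* differences was not tested.

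The folds of the 2 pairs were set side by side. Among the 31 members with 10 or more reads in each pair, Pearson's correlation of the log2 folds was 0.02 and Spearman's was -0.11, as a description across genes that share the same 4 libraries, and 16 had the same sign. Over all 17341 genes with that depth the correlations were 0.14 and 0.16, and 9696 had the same sign. Of the 31 members, 2 were called in the same direction in both pairs and 2 in opposite directions, beside 994 and 505 of the 17341 genes. *WRKY19* Bra000758 and *WRKY25* Bra022786 were lower in both M4 and OvP. *WRKY40* Bra035148 was higher in M4 and lower in OvP, whereas *WRKY15* Bra032174 was lower in M4, with 28 reads against 48 in H3 and no call under total-read scaling, and higher in OvP. The folds of the 2 pairs were compared in an edgeR likelihood-ratio test at an assumed coefficient of variation of 0.4, adjusted over 17341 genes. Of 16 named members tested, the difference passed for *WRKY40*, at 4.64 on the log2 scale (adjusted p = 0.0438).

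**Figure D3:**
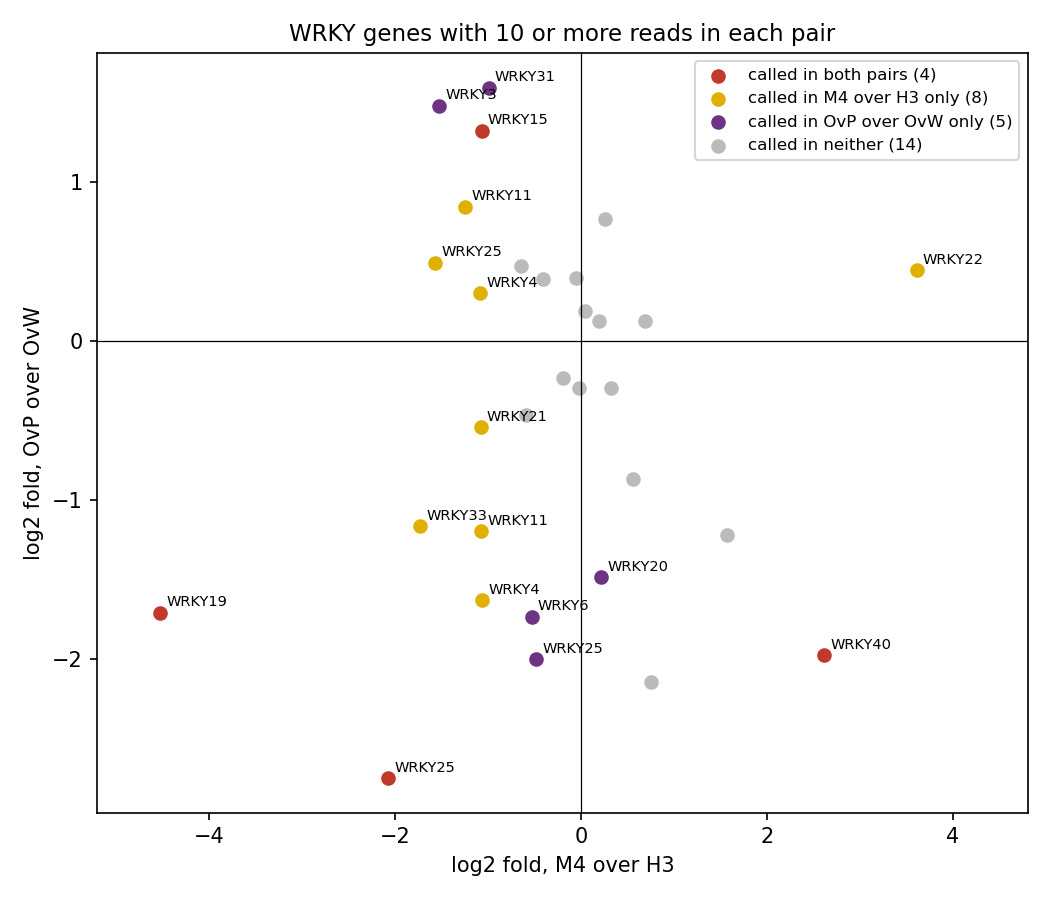
Log2 fold of M4 over H3 (horizontal) against log2 fold of OvP over OvW (vertical) for the 31 *WRKY* genes with 10 or more reads in each pair, 1 point per gene, coloured by the pairs in which the gene was called. The 4 genes called in both pairs fall on both sides of the axes, with *WRKY19* and *WRKY25* at the lower left, *WRKY40* at the lower right and *WRKY15* at the upper left.

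For some names, the copy that drew the most reads differed between the 2 species. Reads of both species were placed on *B. rapa* genes, so a share shows where reads were placed, not which copy the plant used. Of 47 names with more than 1 copy, 8 had 20 or more summed reads in every library. In 4 of these (*WRKY2*, *WRKY4*, *WRKY6* and *WRKY20*) the most read copy was the same in all 4 libraries, and in *WRKY11* and *WRKY25* it differed by species. For *WRKY11*, Bra011282 held 90.3% of the reads in OvP (95% Wilson interval 84.6 to 94.0) and 84.7% in OvW (77.6 to 89.9). In the *B. napus* petals the leading copy was Bra010231, with 38.9% in M4 (34.3 to 43.8) and 46.2% in H3 (42.4 to 50.1).

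For *WRKY25*, Bra018325 held 75.5% of the reads in OvP (62.4 to 85.1) and 87.0% in OvW (81.6 to 91.1), whereas Bra021623 held 70.9% in M4 (65.3 to 76.0) and 77.0% in H3 (73.5 to 80.2). *WRKY3* was split in the same way where it was read deeply enough. Its copy Bra026554 held 86.2% of 29 reads in OvP (69.4 to 94.5), and Bra024780 held 99.5% of 838 reads in M4 and 99.0% of 969 in H3. Within a species the leading copy was the same in 7 of 8 names between M4 and H3 and in 7 of 8 between OvP and OvW.

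**Figure D4:**
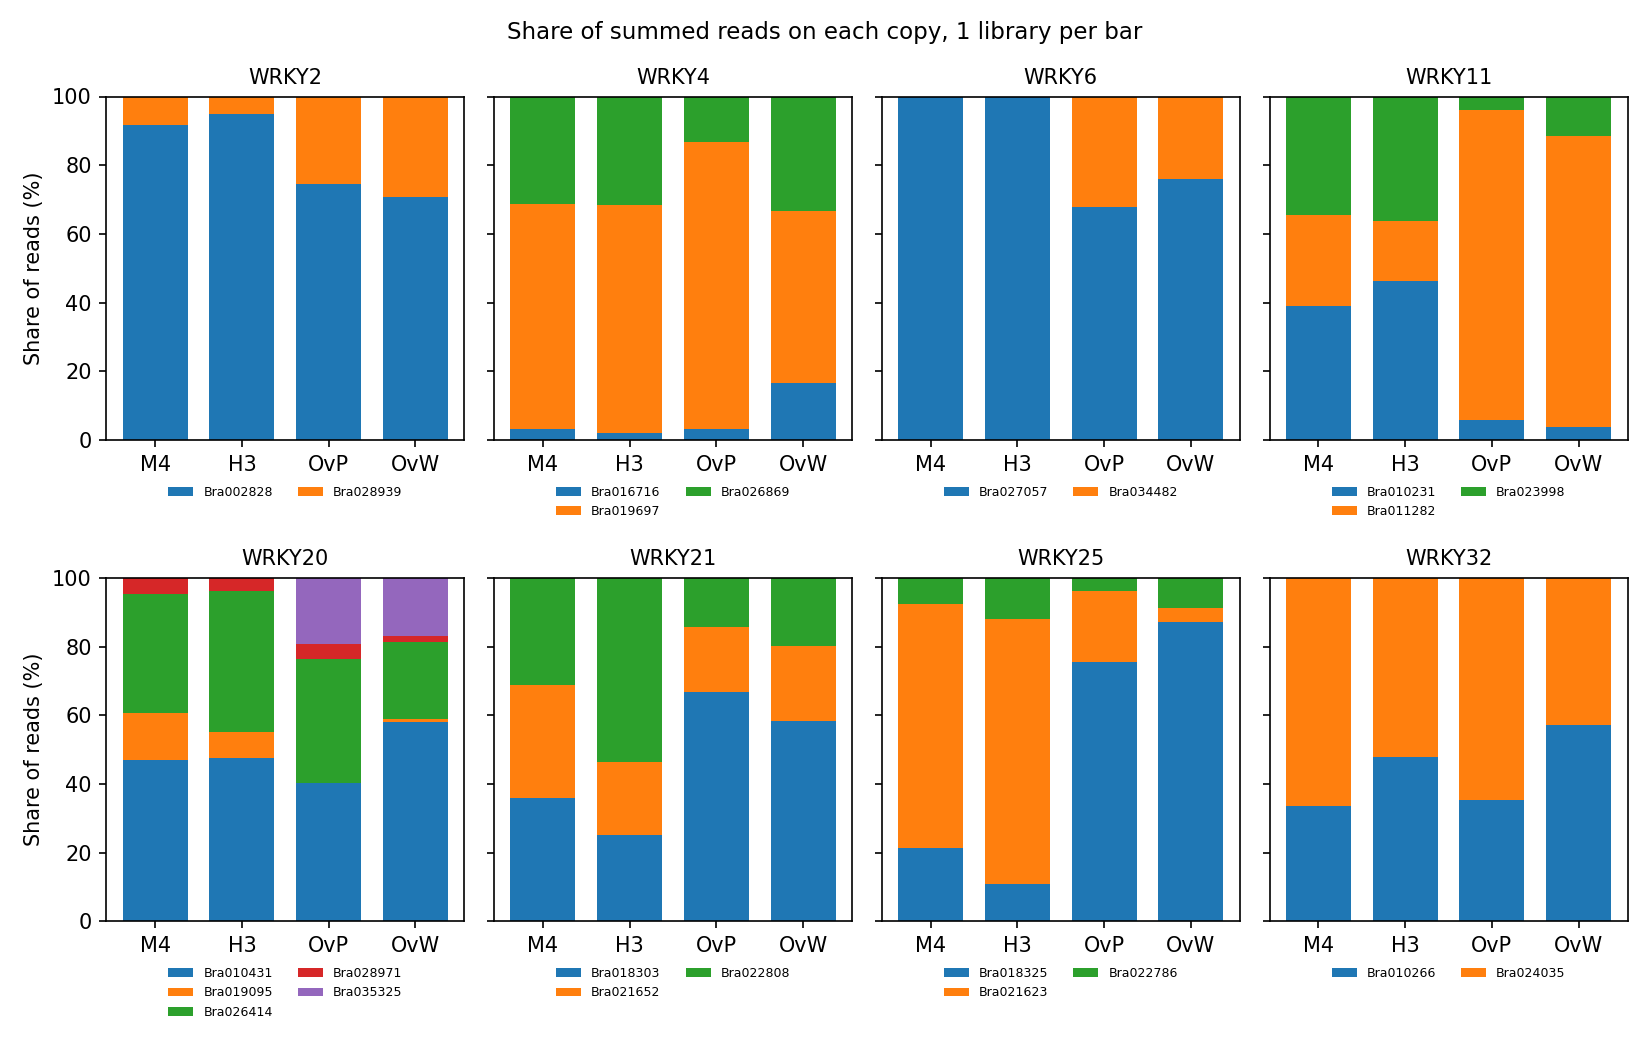
Share of the summed reads of a *WRKY* name on each of its copies, in percent, for the 8 names with 20 or more reads in every library, 1 bar per library. Bra011282 of *WRKY11* and Bra018325 of *WRKY25* fill most of the OvP and OvW bars and a smaller part of the M4 and H3 bars.

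Some copies were read in 1 species only, and how many of all genes showed this was not counted. With 0 reads in both *B. napus* libraries and at least 10 over both *O. violaceus* libraries there were 5 members, copies of *WRKY6*, *WRKY20*, *WRKY29* and *WRKY75*. The short *WRKY20* gene Bra035325, which spans 216 bases on a scaffold, had 17 reads in OvP and 31 in OvW, or 41.7 and 69.1 RPKM. *WRKY75* was read on a different copy in each species, with all reads on Bra008858 in *O. violaceus* (20 in OvP and 14 in OvW) and all on Bra006178 in *B. napus* (14 in M4 and 7 in H3). The reverse pattern was also seen in 5 members, which were copies of *WRKY38*, *WRKY45*, *WRKY48*, *WRKY65* and *WRKY75*. The rarest of these was *WRKY75* in M4 and H3. A count of 0 allows up to 3 reads in an *O. violaceus* library. This is 1.62 CPM (counts scaled to library size) in OvP and 1.47 CPM in OvW. On the same scale, *WRKY38*, *WRKY48*, *WRKY65* and *WRKY75* lay under these bounds in both M4 and H3. For these copies, 0 reads therefore do not show absence in *O. violaceus*.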

How the data were processed

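Petal RNA from 4 materials was sequenced as 1 library each. According to the study's methods, the authors placed paired reads on the *B. rapa* genome using TopHat with few mismatches allowed, and the processing notes name DESeq, Cufflinks and Cuffdiff. Tool versions and the annotation release were not stated. The deposited read counts per gene were used as whole numbers without normalization. The deposited RPKM values, made by the authors and scaled for length and depth, served for levels. The sheet holds no other per-sample columns. The read column of M4 carries another name and was assigned as the remaining column, and its ratio to H3 followed that of the RPKM values.

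Reads were tested with the exact binomial test of edgeR 4.0.16 in R 4.3.3 (two-sided, dispersion of 0, TMM scaling within the pair) on every gene with at least 1 read in the pair, after the thresholds of the study. A second test used reads summed by *Arabidopsis* identifier. Medians used a prior count of 0.5 and genes with 10 or more reads. Folds carry 95% Clopper-Pearson intervals and copy shares 95% Wilson intervals, which cover counting error only, since reads of 1 library are not independent molecules. A gene at 0 was set to a floor of 3 reads. The exact binomial test was run on simulated reads with counting error only, which cannot show how it behaves under spread between plants. The alternatives were total reads, DESeq2 1.42.0 size factors, a minimum of 10 reads, adjusted p-values and assumed coefficients of variation of 0.2 and 0.4.

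Named genes were, per pair, the 10 highest and 10 lowest called members ranked by the interval end nearest to 1, the 8 highest by RPKM, the highest of each group, every copy of *WRKY33*, *WRKY40*, *WRKY53*, *WRKY70* and *WRKY75*, and from the other lists the 3 highest and 3 lowest called. The members and lists were chosen with earlier results of these data known. Of 14 salicylate and defence genes of *Arabidopsis*, 8 were found by identifier. No sequences were used here.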

Additional observations from a re-analysis of the deposited data

Results flagged for a closer look

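*WRKY40* (Bra035148) moved in opposite directions in the 2 pairs. It had 71 reads in M4 and 9 in H3, and 5 reads in OvP and 22 in OvW. The log2 fold of M4 over H3 exceeded that of OvP over OvW by 4.64 (edgeR likelihood-ratio test at an assumed coefficient of variation of 0.4, adjusted p = 0.0438). Of all 17341 genes tested, 428 passed the same threshold. No spread could be estimated from 1 library per material.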

How the results depend on the processing

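Scaling and the assumed spread moved most counts between M4 and H3. With total reads, 11 members were lower in M4 in place of 20, 7 summed names were higher in place of 4, and the median log2 fold was -0.020 in place of -0.40. The median of all genes was then 0.43 in place of 0.05. The median from the deposited RPKM was -0.023, and over members with 50 or more reads it was -0.58. Under both total reads and RPKM, *WRKY70* copies Bra007243 and Bra003239 turned positive, at 0.19 and 0.30 on the log2 scale.

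At an assumed coefficient of variation of 0.4, M4 over H3 kept 3 genes higher and 4 lower, and OvP over OvW kept 2 higher and 0 lower (edgeR exact test, with 2 lower at an unadjusted p under 0.05). Summed names were then 2 higher and 3 lower in M4, and 2 higher and 0 lower in OvP. How many of all genes were called within a pair at 0.4, at 0.2 or after Benjamini-Hochberg adjustment was not counted. At 0.2, 12 members were lower in M4, 3 were higher in OvP, and 6 named members differed between the pairs in place of 1. How many of all genes differed between the pairs at 0.2 was not counted. The named members were partly picked by their folds in these data. After Benjamini-Hochberg adjustment, 3 members were higher in OvP. The OvP over OvW median was 0.12 over members with 50 or more reads in place of -0.29, and the cause was not tested. DESeq2 size factors and a minimum of 10 reads over the pair moved no count of calls by over 1.5 times. At 5 RPKM or more there were 17, 18, 25 and 30 members in M4, H3, OvP and OvW. The share of all genes at that level was not counted.

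No paired analysis was possible because each material has 1 library, so leaving out a library leaves no comparison. In OvP and OvW, 27 and 31 members reached 10 reads, which limits the depth behind the calls.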
